A study of Mus musculus with 12 samples.

Results

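The 78 mitochondrial ribosomal protein genes described here are the protein-coding genes whose symbols in the mouse GENCODE M21 annotation start with Mrpl or Mrps followed by a digit. There are 49 Mrpl and 29 Mrps genes, out of 37574 genes with exon counts, of which 21591 are protein-coding. All 78 passed the filter on low counts, as did 15706 genes in all, and their lowest count in any library was 207. By the place of their proteins, 51 belong to the large subunit, Mrps30 and Mrps18a included, and 26 to the small subunit. Mrps36 was kept apart, since its protein belongs to the 2-oxoglutarate dehydrogenase complex. RNA was sequenced in 12 mouse libraries, 3 in each of 4 groups, to compare stem cells with committed progenitors and both with their counterparts carrying MLL-ENL, a leukaemia fusion that joins parts of Kmt2a and Mllt1. HSC are haematopoietic stem cells, sorted as negative for Lin and CD48 and positive for Sca1, ckit and CD150. The preGM cells are granulocyte and macrophage progenitors, sorted as positive for ckit and negative for Lin, Sca1, CD150, CD105, CD41 and CD16/32. WT HSC and WT preGM came from the strain C57bl/6 WT, and MLL-ENL HSC and MLL-ENL preGM from the strain Col1a1-MLL/ENL. All groups, WT included, were cultured for 48 h in OptiMEM that held 1 µg/ml doxycycline, 10% FCS, SCF at 10 to 50 ng/ml, and IL3 and G-CSF, each at 5 ng/ml. No MLL-ENL library lacked doxycycline, and the fusion and any further difference between both strains therefore cannot be told apart. Whether replicates came from different animals or cultures is not in the labels. The p-values rest on the spread among libraries of a group, and that spread may be technical.

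Mitochondrial ribosomes translate the few proteins encoded by mitochondrial DNA, which are core subunits of the respiratory chain and of ATP synthase. Their ribosomal RNAs come from the mitochondrial genome, while their proteins are encoded in the nucleus, made in the cytosol and imported. Some of these proteins descend from bacterial ribosomal proteins and others are found only in mitochondrial ribosomes.

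The genes lie on 17 chromosomes, with the most, 11, on chromosome 11. RefSeq promoter windows on GRCm38.p6, of 250 bases before and 50 bases after the start site, were found for 69 of the 78 genes. Motifs of regulators of nuclear genes for mitochondrial proteins were searched in them on both strands, by exact letters. The long palindromic motif of nuclear respiratory factor 1 (NRF1) was in 3 of the 69 windows (4.35%), against 0.977% of 27025 promoter windows of the same length. Its shorter form TGCGCA, which can overlap the long one, was in 21 (30.4%) against 8.06%. The ETS motif CCGGAAG, bound by GABPA, was in 25 (36.2%) against 9.12%. The YY1 motif AAGATGGCG was in 8 (11.6%) against 1.49%, and the E-box CACGTG in 5 (7.25%) against 7.24%. These are matches of letters and do not show binding. The 150 bases before the start are printed 5′ to 3′ on the gene's strand for the 3 genes with the long NRF1 motif (Mrpl32, Mrpl9 and Mrpl39), for Mrpl51, which rose in preGM and holds the ETS motif, and for Mrpl57 and Mrpl52, whose levels departed from those of most of the genes. Capitals mark matches to an NRF1 or ETS motif, and Mrpl52 holds the ETS letters on the opposite strand.
Mrpl32 (chr13:14613038-14613187, minus strand): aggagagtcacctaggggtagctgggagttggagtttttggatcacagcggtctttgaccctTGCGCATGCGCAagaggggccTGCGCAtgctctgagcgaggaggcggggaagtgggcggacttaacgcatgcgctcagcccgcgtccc
Mrpl9 (chr3:94443186-94443335, plus strand): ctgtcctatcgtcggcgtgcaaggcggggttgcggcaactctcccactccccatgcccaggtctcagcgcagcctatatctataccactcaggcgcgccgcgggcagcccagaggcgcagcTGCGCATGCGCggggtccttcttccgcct
Mrpl39 (chr16:84735245-84735394, minus strand): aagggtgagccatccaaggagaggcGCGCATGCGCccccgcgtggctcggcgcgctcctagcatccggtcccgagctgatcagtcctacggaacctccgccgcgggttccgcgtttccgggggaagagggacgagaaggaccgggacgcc
Mrpl51 (chr6:125192050-125192199, plus strand): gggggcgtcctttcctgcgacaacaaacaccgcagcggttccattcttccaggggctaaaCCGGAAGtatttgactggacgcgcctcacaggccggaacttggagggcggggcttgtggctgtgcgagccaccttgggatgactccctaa
Mrpl57 (chr14:57826089-57826238, plus strand): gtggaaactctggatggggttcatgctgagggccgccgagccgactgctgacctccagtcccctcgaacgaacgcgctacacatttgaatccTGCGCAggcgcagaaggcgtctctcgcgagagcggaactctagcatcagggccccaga
Mrpl52 (chr14:54426759-54426908, plus strand): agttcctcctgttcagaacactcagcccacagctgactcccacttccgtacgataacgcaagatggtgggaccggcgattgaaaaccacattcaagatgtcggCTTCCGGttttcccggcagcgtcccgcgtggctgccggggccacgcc

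Gene counts per library ranged over 14.5 to 18.2 megacounts for WT HSC, 19.0 to 23.5 for MLL-ENL HSC, 34.7 to 44.5 for WT preGM and 38.5 to 50.3 for MLL-ENL preGM. Levels are counts per megacount (CPM) after TMM scaling, which brings libraries to a common level by their ratios over most genes. The TMM factors ranged from 0.618 in a WT preGM library to 1.35 in a MLL-ENL HSC library. Scaling by library size alone moved the median log2 change of all tested genes from -0.03 to -0.73 for preGM against HSC in WT, and from 0.00 to -0.56 with MLL-ENL. For MLL-ENL against WT it moved that median from 0.02 to 0.21 in HSC and from 0.08 to 0.41 in preGM. Marker genes followed the sort: 9 HSC markers summed to 566 to 940.4 CPM over HSC libraries and 38.7 to 212 over preGM libraries, and 6 granulocyte and macrophage precursor genes to 238 to 429 against 12670.1 to 29866. The 9 HSC markers include Ly6a and Slamf1, which encode the sort antigens Sca1 and CD150, and so are not independent of the sort. Lymphoid markers summed to at most 5.33 CPM in any library, and stromal and endothelial markers to 14.2 to 112. In bulk samples, fewer cells of a type and less RNA per cell cannot be told apart.

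For the mitochondrial ribosomal protein genes, 2 preGM libraries stood apart from the others of their groups. MLL-ENL preGM replicate 1 had the lowest of the 3 levels for 69 of the 78 genes and the highest for 8. WT preGM replicate 2 had the highest for 55 and the lowest for 20. Over the 78 genes, the median log2 deviation from the mean of the other 2 libraries was -0.96 in MLL-ENL preGM replicate 1 and 0.60 in WT preGM replicate 2. MLL-ENL preGM replicate 1 also had 0.581 intron counts per 100 exon counts of these genes, against 0.212 and 0.222 in replicates 2 and 3. The ratio of count density between the 5′ and the 3′ part of a gene, as the median of 57 genes with at least 4 exons, was 0.858 in WT preGM replicate 2, against 1.15 and 1.13 in replicates 1 and 3. The part of these measures in the results was not tested. Beside counts and calls that changed when both were left out, those values are given as well. That fit keeps 2 libraries in each preGM group. By the choice of libraries it lowers WT preGM and raises MLL-ENL preGM for most of these genes.

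Summed over the 78 genes, the level was 9401, 9080.3 and 10507 CPM among WT HSC libraries and 6877, 7021 and 6804 CPM among MLL-ENL HSC libraries. It was 19696, 29033 and 18119 CPM among WT preGM libraries and 9073, 19651 and 17766 CPM among MLL-ENL preGM libraries. All WT preGM libraries were above all HSC libraries, and all MLL-ENL HSC libraries were below all WT HSC libraries. MLL-ENL preGM replicate 1 lay just under the lowest WT HSC library. The means were 9663 ± 748 CPM for WT HSC, 6901 ± 111 for MLL-ENL HSC, 22282 ± 5899 for WT preGM and 15497 ± 5643 for MLL-ENL preGM (SD, n = 3). Without TMM scaling they were 11276 ± 412, 9217 ± 108, 15699 ± 1964 and 13414 ± 3342 CPM in the same order of groups. The summed level of large subunit genes over that of small subunit genes was 2.66 ± 0.0825, 2.66 ± 0.0685, 3.06 ± 0.0527 and 2.98 ± 0.20 in the same order (SD, n = 3). This ratio was 2.75 in MLL-ENL preGM replicate 1 and lay between 3.0 and 3.11 in the other preGM libraries, against 2.57 to 2.73 in the HSC libraries.

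**Figure D1:**
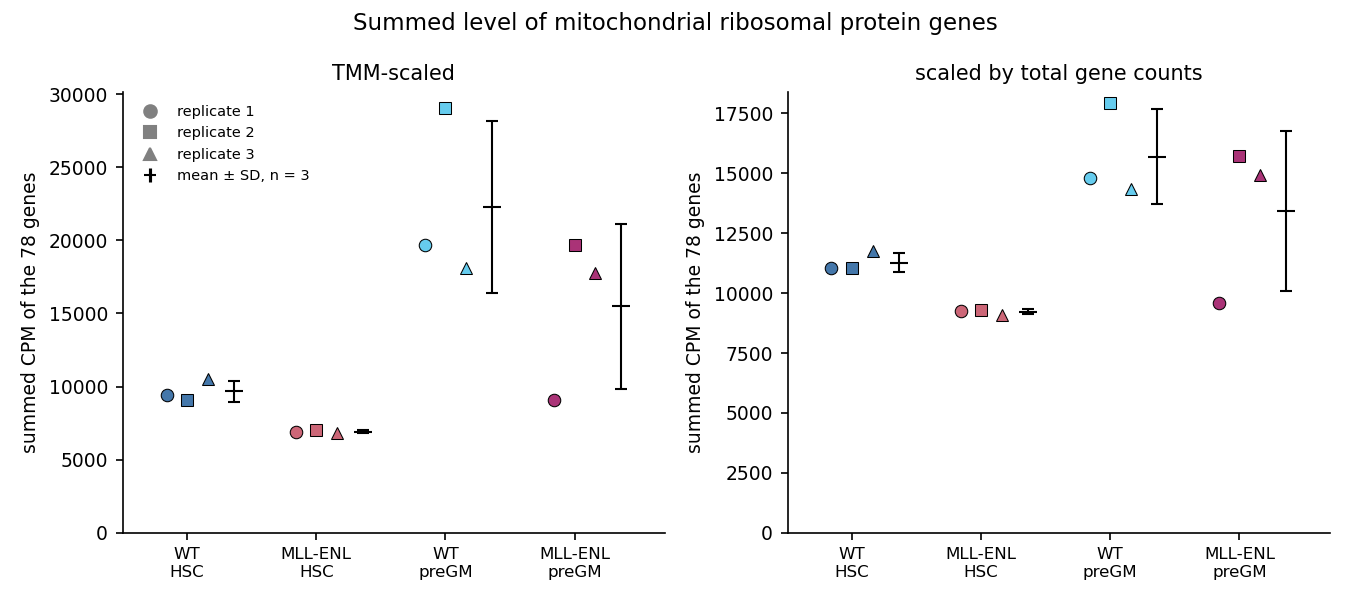
Summed level of the 78 mitochondrial ribosomal protein genes (CPM, vertical axis from 0) in each library of the 4 groups, with and without TMM scaling. Symbols are replicates and bars the mean ± SD of 3 libraries; with TMM scaling the WT preGM libraries lie at 18119 to 29033 CPM, the MLL-ENL HSC libraries at 6804 to 7021, and MLL-ENL preGM replicate 1 at 9073.

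Per kb of the main coding transcript, the mean level over the 12 libraries ranged from 3.85 to 1242 CPM per kb, with a median of 99.0. The 3 highest genes were Mrpl33, a homologue of a bacterial large subunit protein, Mrpl42, a mitochondria-specific large subunit protein, and Mrps18c, 1 of 3 relatives of bacterial S18. Mrpl33 had 936 ± 189.9, 589 ± 31.4, 2332 ± 1076 and 1109.6 ± 567 CPM per kb (SD, n = 3) for WT HSC, MLL-ENL HSC, WT preGM and MLL-ENL preGM. In the same order Mrpl42 had 675 ± 39.0, 386 ± 21.1, 1621 ± 675 and 1033 ± 484 CPM per kb. Mrps18c had 508 ± 57.6, 329 ± 5.61, 1253 ± 602 and 655 ± 333 CPM per kb. Within each preGM group these 3 genes overlapped one another within their SD. The 3 lowest were Mrps26 and Mrps24, of the small subunit, and Mrps30, of the large subunit. Mrps26 had 3.25 ± 1.12, 2.98 ± 0.654, 5.21 ± 2.21 and 3.95 ± 0.573 CPM per kb in the same order of groups, Mrps30 12.7 ± 2.45, 6.91 ± 1.57, 13.8 ± 6.58 and 8.14 ± 3.15 and Mrps24 11.7 ± 1.20, 10.1 ± 1.29, 19.2 ± 8.29 and 12.1 ± 2.54. Mrps30 and Mrps24 overlapped within their SD in WT HSC and in both preGM groups. None of these 3 genes passed the test in either comparison of preGM with HSC.

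**Figure D2:**
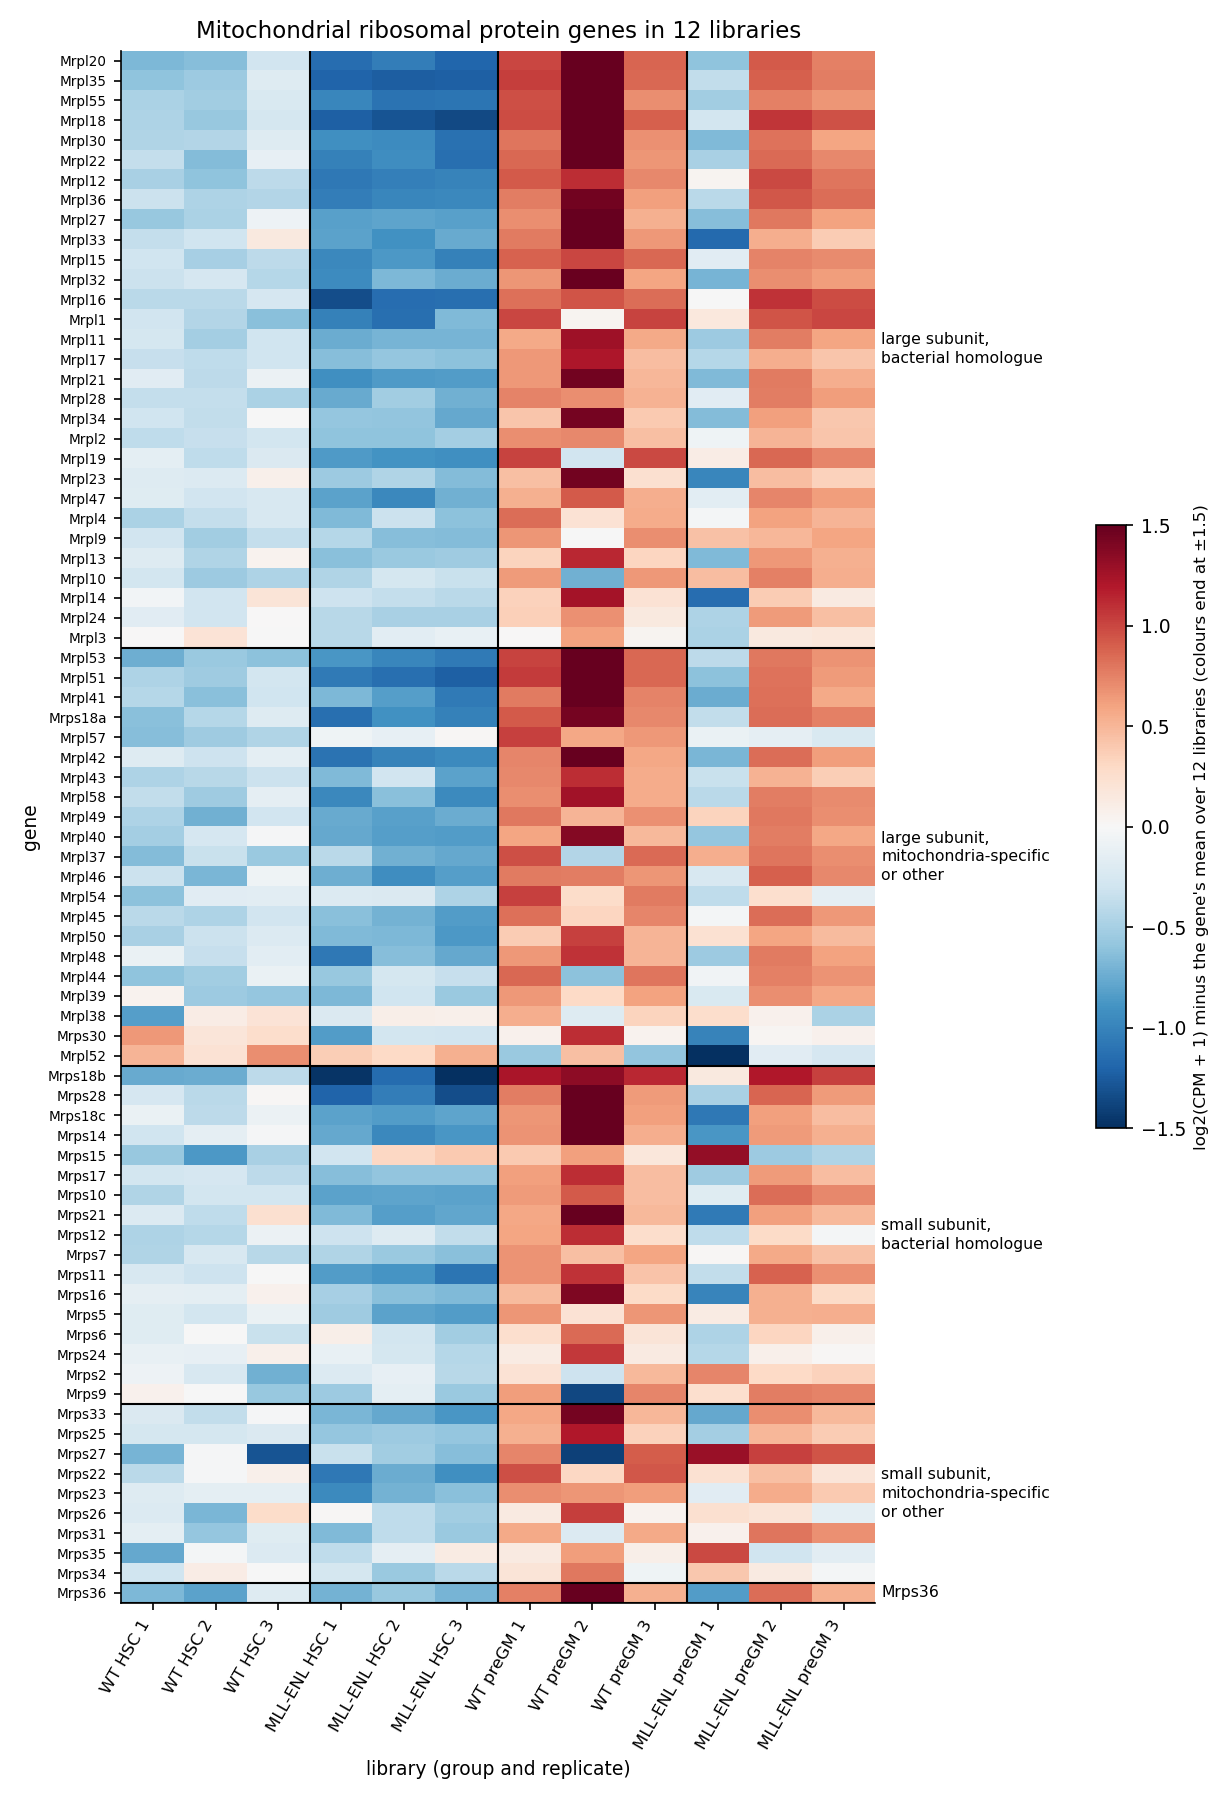
Levels of the 78 genes (rows, by subunit and origin) in the 12 libraries (columns), as log2(CPM + 1) minus each gene's mean over the libraries, with colours ending at ±1.5. Most rows are lower in HSC than in preGM; MLL-ENL preGM replicate 1 is the lowest library of its group for 69 genes and WT preGM replicate 2 the highest of its group for 55.

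Between HSC and preGM, which compares stem cells with committed progenitors, most mitochondrial ribosomal protein genes rose. In WT, 58 of the 78 genes rose and none fell (edgeR quasi-likelihood test, Benjamini-Hochberg adjusted p under 0.05 over all genes tested), where 18.4% of all tested genes rose and 20.1% fell. With MLL-ENL, 58 rose and 1, Mrpl52, fell, where 20.4% of all tested genes rose and 21.1% fell. The median log2 change of the 78 genes was 1.04 in WT and 1.10 with MLL-ENL, against -0.03 and 0.00 over all genes tested. In both genotypes 51 genes rose, and 66 genes were called in at least 1 genotype. The WT and the MLL-ENL comparison share no library, and across the 78 genes their log2 changes had a Pearson correlation of 0.717, as a description, since genes share libraries and depth.

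These counts moved with the scaling. With library size alone, 16 genes rose and 2 (Mrpl3 and Mrpl52) fell in WT, with a median of 0.34, where 7.58% of all genes rose and 39.2% fell. With MLL-ENL, 25 rose and 2 (Mrpl52 and Mrpl57) fell, with a median of 0.47, where 7.75% of all genes rose and 35.1% fell. Relative to the median of all tested genes, the median of the 78 genes was 1.07 in WT and 1.10 with MLL-ENL under TMM, and 1.07 and 1.03 with library size alone. Without both libraries that stood apart, 68 genes rose and 1 (Mrpl52) fell in WT, where 25.6% of all genes rose and 25.3% fell. With MLL-ENL, 68 then rose and 2 (Mrpl52 and Mrps15) fell, where 25.1% rose and 26.5% fell.

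On TMM-scaled CPM, the 3 preGM libraries were above the 3 HSC libraries without overlap for 64 of the 78 genes in WT, where this held for 23.6% of all genes tested. With MLL-ENL it held for 51, against 25.9% of all genes. It held in both genotypes for 42 genes and in neither for 5. Without TMM scaling it held for 39 genes in WT (all genes 10.8%) and for 35 with MLL-ENL (all genes 13.1%).

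Some measures of the RNA differed between HSC and preGM as well. Intron counts of the 78 genes per 100 of their exon counts were 0.477 ± 0.0551 for WT HSC against 0.181 ± 0.0351 for WT preGM, and 0.778 ± 0.108 for MLL-ENL HSC against 0.338 ± 0.210 for MLL-ENL preGM (SD, n = 3). The 5′ to 3′ density ratio was 0.897 ± 0.0245 against 1.05 ± 0.163 in WT and 0.952 ± 0.0426 against 1.10 ± 0.0271 with MLL-ENL. Coding transcripts of the 78 genes had a median of 1213 bases, against 2817 over 13089 tested protein-coding genes. Across those 13089 genes, the log2 change from HSC to preGM and the log2 length had a Pearson correlation of -0.21 in WT and -0.13 with MLL-ENL, and across the 78 genes of -0.05 and 0.17, as a description. Marker genes of maturing cells differed too. The summed level of 5 neutrophil granule genes had a median of 8.29 CPM over WT HSC libraries and 3955 over WT preGM libraries. With MLL-ENL these medians were 8.58 and 14.9 CPM. For 5 mast cell and basophil genes the medians were 7.54 and 2120.3 CPM in WT, and 5.98 and 259.8 with MLL-ENL. The part of these markers and of the measures of the RNA in the rise was not tested.

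Of the 30 large subunit genes with bacterial homologues, 24 rose in WT and 26 with MLL-ENL, with median log2 changes of 1.18 and 1.16. These were 28 and 30 genes without both libraries that stood apart. Mrpl12, whose protein also binds the mitochondrial RNA polymerase, had 184, 171 and 196 CPM among WT HSC libraries, 123, 127 and 128 among those of MLL-ENL HSC, 489, 559.7 and 428 among those of WT preGM, and 267, 514 and 450.1 among those of MLL-ENL preGM. Every preGM library was above every HSC library. The log2 change of Mrpl12 was 1.42 ± 0.27 (adjusted p = 0.000685) in WT and 1.70 ± 0.27 (adjusted p = 0.000166) with MLL-ENL, each ± SE. Mrpl20, a relative of a bacterial protein that binds rRNA, had 221, 228 and 289 CPM among WT HSC libraries, 159.6, 171 and 155 among those of MLL-ENL HSC, 711, 1456 and 650.4 among those of WT preGM, and 232, 669 and 596 among those of MLL-ENL preGM. WT preGM replicate 2 was the highest library here, and MLL-ENL preGM replicate 1 lay among the WT HSC libraries but above the MLL-ENL HSC libraries. Mrpl20 rose by 1.93 ± 0.39 (adjusted p = 0.00113) in WT and 1.62 ± 0.39 (adjusted p = 0.00356) with MLL-ENL.

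Mrpl18, a relative of a bacterial protein that binds 5S rRNA, had 421, 393 and 483 CPM among WT HSC libraries, 247, 236 and 227 among those of MLL-ENL HSC, 1141, 1694 and 1082 among those of WT preGM, and 481, 1221 and 1130.2 among those of MLL-ENL preGM. Within each genotype no preGM library overlapped the HSC libraries. Mrpl18 rose by 1.59 ± 0.34 (adjusted p = 0.00157) in WT and 2.0 ± 0.34 (adjusted p = 0.000295) with MLL-ENL. Mrpl16, a relative of bacterial L16, rose by 1.23 (adjusted p = 0.00222) and 1.98 (adjusted p = 5.33e-05), and Mrpl35 by 1.74 (adjusted p = 0.000876) and 1.76 (adjusted p = 0.000787). Mrpl1, a relative of the L1 stalk protein, rose by 1.21 (adjusted p = 0.00496) and 1.69 (adjusted p = 0.000456). Mrpl33 rose by 1.32 in WT (adjusted p = 0.0169), and its change of 0.92 with MLL-ENL missed the threshold (adjusted p = 0.0768). Mrpl3 had changes of 0.17 and 0.20, neither past the threshold (adjusted p = 0.609 and 0.533). The rise of Mrpl33 in WT did not pass once WT HSC replicate 1, WT HSC replicate 2 or WT preGM replicate 2 was left out, where it was 1.23, 1.25 and 0.88 (adjusted p = 0.0666, 0.0623 and 0.0795). With MLL-ENL, Mrpl33 rose by 1.29 without both libraries that stood apart (adjusted p = 2.51e-06). MLL-ENL preGM replicate 1 was the lowest of its group for Mrpl33, so leaving it out raises this change by itself. That call is given as a description.

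Of the 21 other large subunit genes, 17 rose in WT, and 16 rose and 1 fell with MLL-ENL, with medians of 1.11 and 1.21. Without both libraries, 18 rose and 1 fell in WT, and 16 rose and 1 fell with MLL-ENL. Mrpl51, found only in mitochondrial ribosomes, had 139, 133 and 158 CPM among WT HSC libraries, 91.6, 87.1 and 81.4 among those of MLL-ENL HSC, 398, 735 and 348 among those of WT preGM, and 125, 339 and 299 among those of MLL-ENL preGM. MLL-ENL preGM replicate 1 was the lowest preGM library and lay below the WT HSC libraries. Mrpl51 rose by 1.79 ± 0.36 (adjusted p = 0.00112) in WT and 1.55 ± 0.36 (adjusted p = 0.0029) with MLL-ENL. Mrpl53 had the largest log2 change of the 78 genes in WT, 1.98 ± 0.33 (adjusted p = 0.00021), but 87.1% of its exon bases lie in another gene, whose reads cannot be told apart from its own. Mrpl58, which releases peptides from stalled mitochondrial ribosomes, rose by 1.22 and 1.3 (adjusted p = 0.00578 and 0.00367), and Mrpl42 by 1.26 and 1.42 (adjusted p = 0.013 and 0.00636). Leaving out WT preGM replicate 2 ended the call of Mrpl42 in WT, at 0.87 (adjusted p = 0.0519). The change of Mrps30 was 0.12 and 0.23 and passed in neither genotype (adjusted p = 0.817 and 0.617). Mrps18a, a large subunit relative of bacterial S18, rose by 1.47 and 1.53 (adjusted p = 0.00193 and 0.00143).

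Of the 17 small subunit genes with bacterial homologues, 12 rose in WT and 9 with MLL-ENL, with medians of 1.02 and 0.95. Without both libraries, 15 rose in WT, and 14 rose and 1 fell with MLL-ENL. Scaled by library size alone, 1 rose in WT and 4 with MLL-ENL. Mrps18b (chr17:35910379-35916389, minus strand), another relative of S18, had the largest change of the 78 genes with MLL-ENL. Its levels were 63.9, 64.8 and 82.7 CPM among WT HSC libraries, 38.8, 48.6 and 36.0 among those of MLL-ENL HSC, 256, 278 and 239 among those of WT preGM, and 121, 252 and 223 among those of MLL-ENL preGM. No preGM library overlapped any HSC library. Mrps18b rose by 1.87 ± 0.28 (adjusted p = 8.86e-05) in WT and 2.27 ± 0.29 (adjusted p = 1.99e-05) with MLL-ENL, and 30.5% of its exon bases are shared with another gene. The third relative, Mrps18c, rose by 1.3 in WT (adjusted p = 0.0165), and its change with MLL-ENL was 0.99 (adjusted p = 0.0541). For Mrps18c the WT call ended when WT HSC replicate 2 or WT preGM replicate 2 was left out, at 1.21 and 0.84 (adjusted p = 0.0643 and 0.0811). With MLL-ENL, Mrps18c rose by 1.36 without both libraries that stood apart (adjusted p = 1.43e-07). By the choice of libraries that fit raises MLL-ENL preGM for most of these genes, so that call is given as a description. Mrps12, a relative of a bacterial protein at the decoding centre, rose by 1.02 in WT (adjusted p = 0.00571), and its change with MLL-ENL was 0.28 (adjusted p = 0.405). The WT calls that ended with library size alone were, among the rises given so far, those of Mrpl1 (0.55, adjusted p = 0.17), Mrpl16 (0.52, adjusted p = 0.0643), Mrpl33, Mrpl42, Mrpl58, Mrps12 and Mrps18c.

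Of the 9 other small subunit genes, 4 rose in WT and 6 with MLL-ENL, with medians of 0.83 and 1.05. Without both libraries, 6 and 7 rose, and with library size alone none was called in either genotype. Mrps26 had changes of 0.67 and 0.40 (adjusted p = 0.111 and 0.326). Mrps36, the dehydrogenase component, rose by 1.70 ± 0.40 (adjusted p = 0.00341) in WT and 1.01 ± 0.39 (adjusted p = 0.0489) with MLL-ENL. The latter call was lost with library size alone, where the change was 0.37 (adjusted p = 0.398), with the replicate block (adjusted p = 0.0665), and without any 1 of the 6 HSC libraries, WT preGM replicate 1, MLL-ENL preGM replicate 2 or MLL-ENL preGM replicate 3 (adjusted p up to 0.209). The 12 genes called in neither genotype were Mrpl3, Mrpl14, Mrpl23, Mrpl38, Mrps6, Mrps9, Mrps16, Mrps24, Mrps26, Mrps30, Mrps34 and Mrps35.

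**Figure D3:**
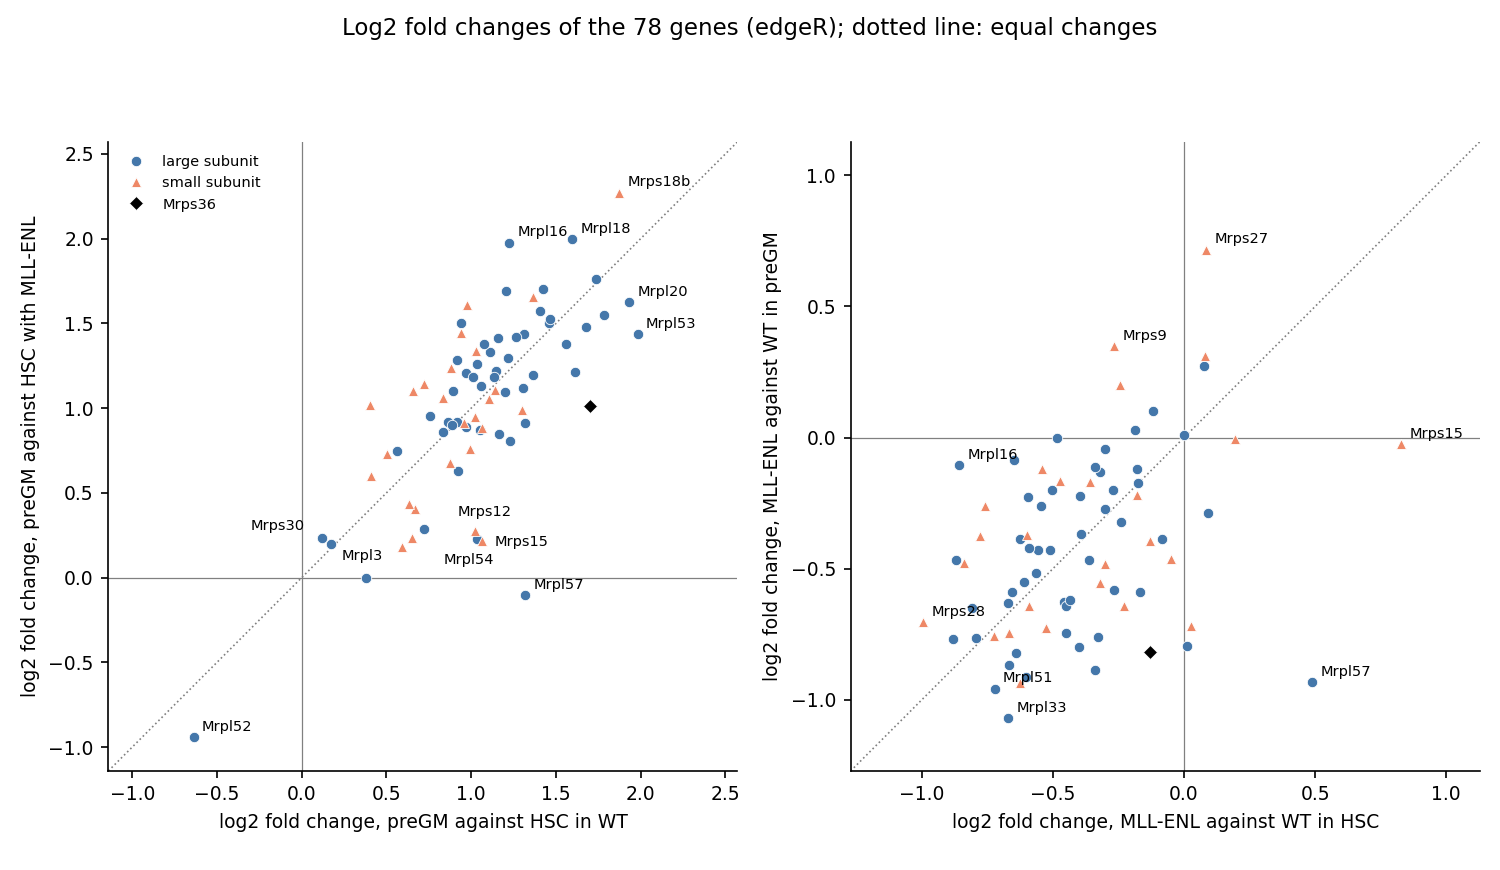
Log2 fold changes (edgeR) of the 78 genes, coloured by subunit: preGM against HSC in WT (horizontal) and with MLL-ENL (vertical) on the left, and MLL-ENL against WT in HSC (horizontal) and in preGM (vertical) on the right, with a dotted line where both changes are equal. On the left 75 genes lie above 0 on both axes, with Mrpl57 at 1.32 and -0.10 and Mrpl52 at -0.64 and -0.94; on the right 64 genes lie below 0 on both axes.

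In HSC, where stem cells of the fusion strain are compared with WT, most mitochondrial ribosomal protein genes had lower levels with MLL-ENL, by a small amount. In the fit of all 12 libraries none of the 78 genes rose or fell, where 3.19% of all tested genes rose and 0.936% fell (edgeR; the smallest adjusted p was 0.0598, for Mrps22, a small subunit gene). At an unadjusted p under 0.05, 1 was higher and 13 lower, where 11.3% of all tested genes were higher and 7.09% lower. DESeq2 called 2 lower, Mrpl16 and Mrps22, where it called 2.7% of all genes lower. The log2 change was below 0 for 68 of the 78 genes, with a median of -0.42 against 0.02 over all genes tested, and of -0.22 against 0.21 with library size alone. In the fit of the 6 HSC libraries alone, 40 genes fell and 2 (Mrpl57 and Mrps15) rose, where 8.69% of all tested genes fell and 8.99% rose. Without both preGM libraries that stood apart, 49 fell, among them all 40, and 2 rose, where 11.1% fell and 10.3% rose. Leaving out MLL-ENL preGM replicate 1 alone gave 9 lower (2.98% of all genes) and 1 higher (5.06%), and leaving out WT preGM replicate 2 alone gave 1 lower (1.87%). The median log2 change was -0.40 in the fit of HSC alone and -0.42 without both libraries. Lower levels were not particular to the 78 genes. In the fit of all 12 libraries the median was -0.51 for 85 cytosolic ribosomal protein genes and -0.50 for 90 nuclear respiratory chain genes. Without both libraries, 76 and 62 of these fell, and 1 and 2 rose. Medians of 13 mitochondrial translation factors and 20 synthetases were -0.05 and 0.02, and 1 and 3 fell without both libraries.

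The 3 MLL-ENL HSC libraries were below the 3 WT HSC libraries without overlap for 54 of the 78 genes on TMM-scaled CPM, where this held for 17% of all genes tested, and above them for Mrpl57 and Mrps15, where it held for 17.8%. Without TMM scaling they were below for 40 genes (all genes 9.88%) and above for 3 (Mrpl10, Mrpl57 and Mrps15; all genes 26.5%). In the fit of the HSC libraries alone, 19 of the 30 large subunit genes with bacterial homologues and 8 of the 21 other large subunit genes fell. Of the small subunit genes, 9 of the 17 with bacterial homologues and 4 of the 9 others fell. Mrpl12 fell by 0.53 ± 0.10 (adjusted p = 0.00329) in that fit (log2, SE), Mrpl58 by 0.49 ± 0.14 (adjusted p = 0.0277) and Mrps30 by 0.87 ± 0.24 (adjusted p = 0.0238). All 3 relatives of bacterial S18 fell: Mrps18a by 0.59 ± 0.13 (adjusted p = 0.00582), Mrps18b by 0.76 ± 0.16 (adjusted p = 0.005) and Mrps18c by 0.61 ± 0.11 (adjusted p = 0.00183). For Mrps12 the change was 0.04 (adjusted p = 0.874) and for Mrps36 -0.11 (adjusted p = 0.701). As an example of the spread, Mrps18c had 345, 282 and 348 CPM among WT HSC libraries and 212, 207 and 214 among MLL-ENL HSC libraries, with a gap between the groups. Other genes share 24.6% of the exon bases of Mrps18c and 37.8% of those of Mrps30, and their reads cannot be told apart.

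Some other measures moved with this comparison. The summed level of 8 proliferation genes was 1617 to 1756 CPM over WT HSC libraries and 1128 to 1224 over MLL-ENL HSC libraries. That of 6 megakaryocyte and platelet genes was 551 to 691 against 194 to 241, and that of 9 HSC markers 566 to 632 against 857 to 940.4. Erythroid markers summed to 105 to 121 against 38.0 to 39.2 CPM, granulocyte and macrophage precursor genes to 291 to 429 against 238 to 273, stromal and endothelial markers to 14.2 to 17.7 against 27.8 to 29.8, and lymphoid markers to 2.35 to 4.08 against 0 to 0.0398. Intron counts of the 78 genes per 100 of their exon counts were 0.477 ± 0.0551 for WT HSC and 0.778 ± 0.108 for MLL-ENL HSC (SD, n = 3). The part of these measures in the lower levels was not tested.

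**Figure D4:**
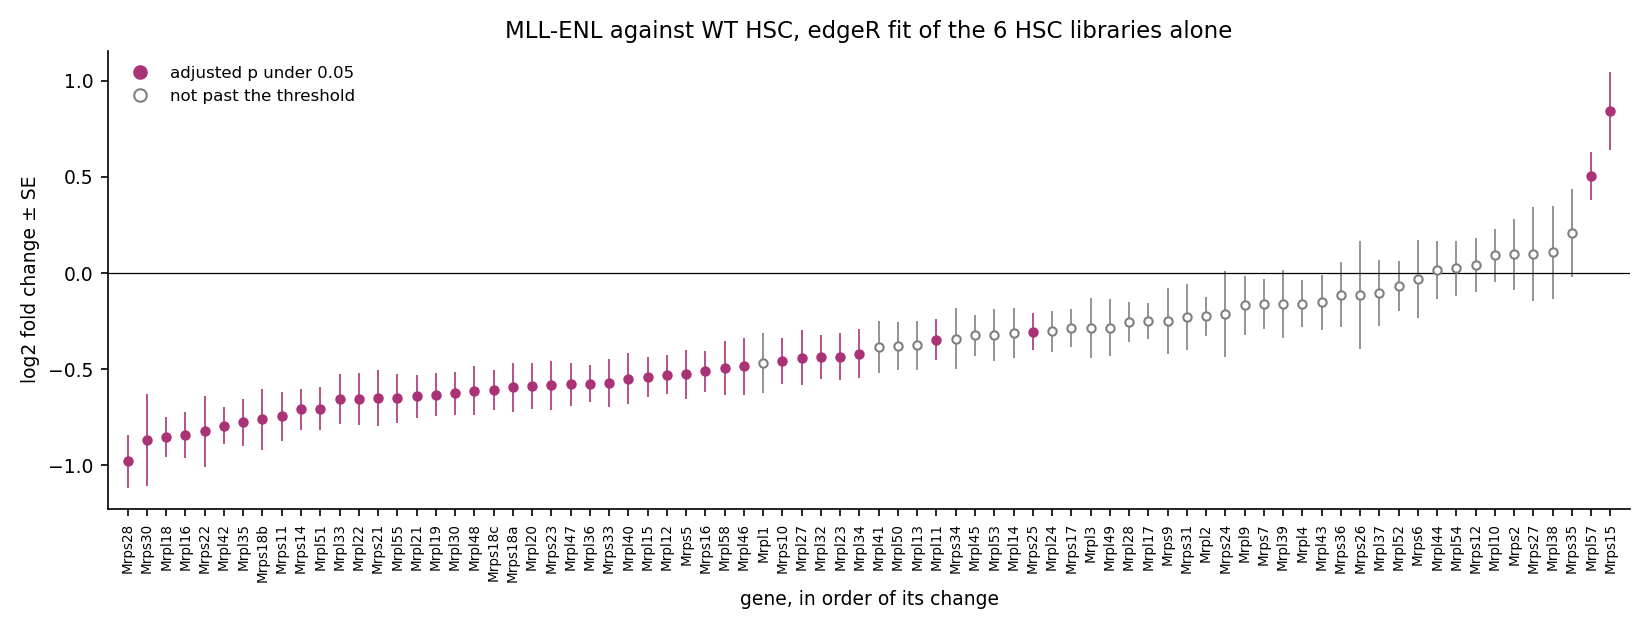
Log2 fold change of MLL-ENL against WT HSC (± SE) of each of the 78 genes in order of change, from the edgeR fit of the 6 HSC libraries alone. Filled points have an adjusted p under 0.05: 40 genes lie below 0, and Mrpl57 and Mrps15 lie above it at 0.50 and 0.84.

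In preGM, the same comparison between strains called 1 of the 78 genes, Mrpl57, lower with MLL-ENL and none higher, where 3.07% of all tested genes fell and 3.7% rose. At an unadjusted p under 0.05, none was higher and 16 lower, where 13.6% of all tested genes were higher and 9.81% lower. The median log2 change was -0.43 against 0.08 over all genes tested, with 70 of the 78 genes below 0. This median depended on the libraries that stood apart. For most of these same genes 1 was high in WT and 1 low with MLL-ENL, so leaving both out moves the median upward by itself. Without both it was -0.01, with 41 genes below 0, and 3 genes fell (Mrpl54, Mrpl57 and Mrps15), where 3.62% of all genes fell and 3.52% rose. Without MLL-ENL preGM replicate 1 alone the median was -0.23, with 2 genes lower (2.41% of all genes). Without WT preGM replicate 2 alone it was -0.26, also with 2 lower (2.16%). In the edgeR fit of the preGM libraries alone none of the 78 genes was called, where 5.18% of all genes were, and at an unadjusted p under 0.05 none was higher and 1 lower, where 10.3% of all genes were higher and 8.28% lower.

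The MLL-ENL preGM libraries were below the WT preGM libraries without overlap for 9 of the 78 genes, where this held for 12.8% of all genes tested. These were Mrpl15, Mrpl33, Mrpl43, Mrpl51, Mrpl53, Mrpl54, Mrpl57, Mrps23 and Mrps24. They were above for Mrps27 alone, where it held for 15% of all genes. The median change was -0.64 for the 38 genes with shorter coding transcripts and -0.27 for the 40 with longer ones. These medians were 0.02 and -0.03 without both libraries that stood apart. The preGM groups also differed in marker genes. The summed level of 5 neutrophil granule genes was 3361 to 5259.6 CPM over WT preGM libraries and 6.53 to 17.0 over MLL-ENL preGM libraries, and that of 5 mast cell and basophil genes 1424 to 2378 against 179.9 to 281. Granulocyte and macrophage precursor genes summed to 27052 to 29866 against 12670.1 to 16141 CPM, HSC markers to 38.7 to 46.0 against 83.0 to 212, stromal and endothelial markers to 31.2 to 33.8 against 34.9 to 112, and lymphoid markers to 0.567 to 0.745 against 2.56 to 5.33. Their part in the results was not tested.

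The difference between the responses to the fusion strain, preGM minus HSC, was called for 1 of the 78 genes, Mrpl57, where 2.06% of all tested genes had a lower and 1.08% a higher response in preGM. The median difference was 0.03 against 0.07 over all genes tested. Without both libraries that stood apart, 23 genes had a higher and 3 (Mrpl54, Mrpl57 and Mrps15) a lower response in preGM, where 6.74% and 5.45% of all genes did, and the median was 0.44. Both libraries stood apart in the levels of these same genes, so leaving them out raises this difference by itself. Calls from that fit are given as a description. Among the 23 were Mrpl12 with 0.62 (adjusted p = 0.0151), Mrpl16 with 1.06 (adjusted p = 0.000475) and Mrpl18 with 0.95 (adjusted p = 0.000911). The S18 relatives Mrps18a, Mrps18b and Mrps18c had 0.59 (adjusted p = 0.0496), 0.72 (adjusted p = 0.0389) and 0.53 (adjusted p = 0.0373). In the fit of all 12 libraries these 6 differences lay between -0.31 (Mrps18c) and 0.75 (Mrpl16), and none passed.

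Mrpl57 (chr14:57826234-57829296, plus strand), a mitochondria-specific large subunit gene, had 43.4, 46.7 and 49.3 CPM among WT HSC libraries, 64.7, 62.4 and 68.5 among those of MLL-ENL HSC, 139, 102 and 107 among those of WT preGM, and 63.0, 61.6 and 57.7 among those of MLL-ENL preGM. It was lowest in WT HSC and highest in WT preGM, neither of which overlapped any other group, while the MLL-ENL groups overlapped each other. With MLL-ENL it fell in preGM by 0.93 ± 0.21 (adjusted p = 0.0111), while its change in HSC was 0.49 ± 0.21 (adjusted p = 0.212), or 0.50 ± 0.13 in the fit of the HSC libraries alone (adjusted p = 0.0143). The difference between the responses was -1.42 ± 0.29 (adjusted p = 0.0117). From HSC to preGM it rose by 1.32 ± 0.21 (adjusted p = 0.000139) in WT, and the change with MLL-ENL was -0.10 ± 0.20 (adjusted p = 0.716). Most of its counts came from exon 2, of 2237 bases, with means of 44.9, 62.3, 109 and 57.7 CPM for WT HSC, MLL-ENL HSC, WT preGM and MLL-ENL preGM. Exon 1, of 84 bases, had 1.57, 2.92, 7.09 and 3.08 CPM, also lowest in WT HSC and highest in WT preGM. The fall in preGM did not pass once WT preGM replicate 1 was left out (adjusted p = 0.0736), nor with library size alone (-0.62, adjusted p = 0.104), with limma on log2(RPKM + 0.1) or log2(RPKM + 1) (adjusted p = 0.134 and 0.157), or in the fit of the preGM libraries alone (adjusted p = 0.133). With library size alone the difference between the responses was -1.3 (adjusted p = 0.0577), and the change from HSC to preGM with MLL-ENL was -0.67 (adjusted p = 0.0322). Over all alternatives the adjusted p of the difference lay between 8.31e-07 and 0.0577.

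Mrpl52 (chr14:54426909-54429756, plus strand), a mitochondria-specific large subunit gene, had 171, 139.7 and 194 CPM among WT HSC libraries, 154, 148 and 174 among those of MLL-ENL HSC, 81.1, 165 and 79.2 among those of WT preGM, and 41.3, 107 and 101 among those of MLL-ENL preGM. The preGM libraries were below the HSC libraries, except WT preGM replicate 2, which lay among them. The log2 change from HSC to preGM was -0.64 ± 0.35 in WT (adjusted p = 0.163) and -0.94 ± 0.35 with MLL-ENL (adjusted p = 0.042). All 5 exons had lower means in preGM than in HSC of the same genotype. The fall with MLL-ENL did not pass when any 1 of the 6 HSC libraries, MLL-ENL preGM replicate 1 or MLL-ENL preGM replicate 3 was left out, with adjusted p up to 0.116, nor in the fit of the MLL-ENL groups alone (adjusted p = 0.0516). Without both libraries that stood apart it fell in both genotypes, by 1.06 in WT (adjusted p = 2.07e-05) and 0.61 with MLL-ENL (adjusted p = 0.00181). WT preGM replicate 2, left out there, was the highest of its group for Mrpl52, which by itself deepens the fall in WT.

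Mrps15, a relative of a bacterial protein that binds rRNA in the small subunit, had 23.7, 19.2 and 25.2 CPM among WT HSC libraries, 29.0, 44.6 and 47.2 among those of MLL-ENL HSC, 47.2, 55.2 and 40.2 among those of WT preGM, and 90.1, 24.0 and 25.8 among those of MLL-ENL preGM. MLL-ENL preGM replicate 1 was the highest of all libraries here, unlike for most of the 78 genes, and the other MLL-ENL preGM libraries were close to WT HSC. Mrps15 rose from HSC to preGM in WT by 1.07 ± 0.40 (adjusted p = 0.0478), a call that ended with library size alone (0.35, adjusted p = 0.565). Its change with MLL-ENL was 0.21 (adjusted p = 0.691), or -0.68 without both libraries that stood apart (adjusted p = 0.0121). Leaving out MLL-ENL preGM replicate 1, the highest library, lowers this change by itself. In exon 1, MLL-ENL preGM replicate 1 had 9.76 CPM, against 0.325 and 0.607 in replicates 2 and 3. Mrps27 and Mrps9, both of the small subunit, were low in WT preGM replicate 2. Mrps27 had 27.5 CPM there, against 124 and 140.2 in the other WT preGM libraries, and Mrps9 had 39.2 against 159 and 171.

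**Figure D5:**
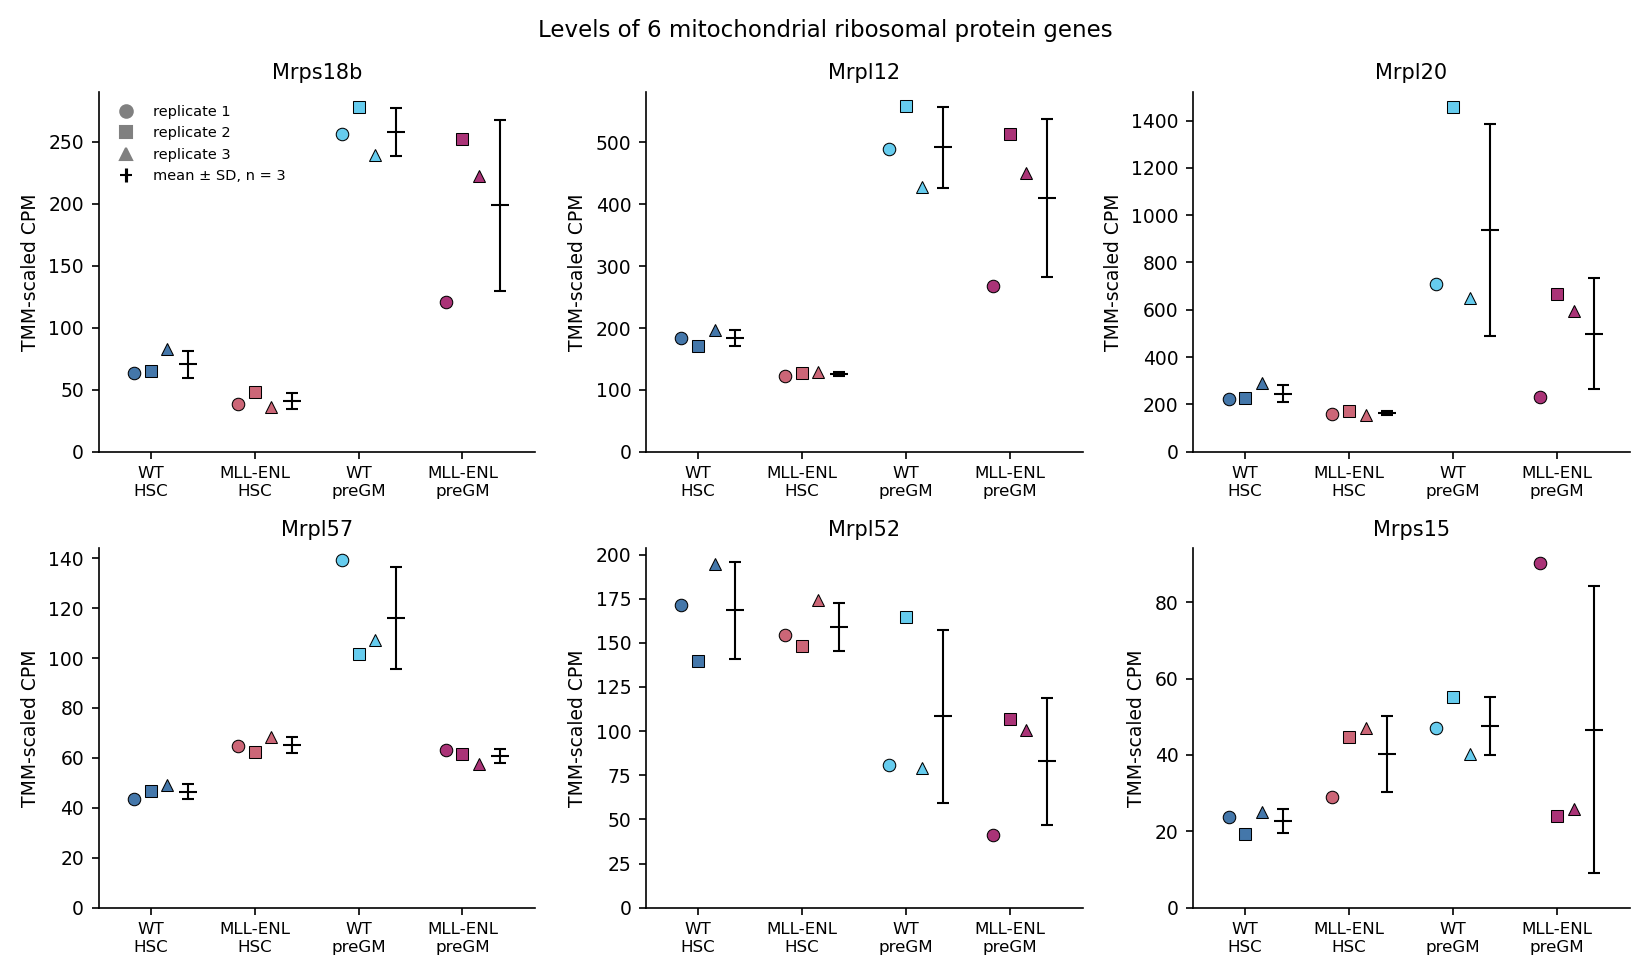
Levels of 6 mitochondrial ribosomal protein genes (TMM-scaled CPM, vertical axes from 0) in each library of the 4 groups; symbols are replicates and bars the mean ± SD of 3 libraries. Mrps18b and Mrpl12 are higher in every preGM library than in every HSC library, Mrpl57 is highest in WT preGM at 102 to 139 CPM, Mrpl52 is lower in 5 of the 6 preGM libraries than in HSC, and Mrps15 is highest in MLL-ENL preGM replicate 1 at 90.1 CPM.

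The 78 genes varied together over the 12 libraries. The Pearson correlation of a gene's log2 level with the mean of the others had a median of 0.945 and was above 0.9 for 49 genes, as a description, since the points share libraries and groups. Mrps18a was most like the others, with 0.995, before Mrpl35 with 0.993 and Mrpl18 with 0.993. It was below 0.5 for 8 genes, which were Mrpl52 (-0.32), Mrps15 (0.06), Mrpl38 (0.13), Mrps35 (0.24), Mrps9 (0.28), Mrps27 (0.29), Mrps2 (0.37) and Mrpl10 (0.49). Over the 10 libraries without those that stood apart, the median was 0.974 and 5 genes were below 0.5. Mrps9 then had 0.907 and Mrps27 0.82, while Mrpl52 had -0.86 and Mrps15 -0.02.

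Other genes of mitochondrial translation, from lists chosen by function, are set beside the 78 genes here for the change from HSC to preGM. The counts are to be read against the 18.4% of all tested genes that rose and 20.1% that fell in WT, and 20.4% and 21.1% with MLL-ENL. These shares were 25.6%, 25.3%, 25.1% and 26.5% without both libraries that stood apart. Of 5 ribosome subunits with other symbols, 2 rose in WT (Aurkaip1 by 1.37 and Chchd1 by 1.22) and 3 with MLL-ENL (Ptcd3 by 1.70, Aurkaip1 by 1.10 and Chchd1 by 1.09), with none lower. Without both libraries 4 rose in each genotype. The rise of Ptcd3 with MLL-ENL was then 0.85 (adjusted p = 0.00552). Of 13 translation factors, 4 rose and 1 fell in WT, and 6 rose and 1 fell with MLL-ENL. Without both libraries 8 rose and 1 fell in WT, and 9 rose and 2 fell with MLL-ENL. Tufm, the elongation factor that brings tRNA to the mitochondrial ribosome, rose by 0.98 and 2.17, and its level in WT preGM replicate 2, 39.7 CPM, was below every WT HSC library. Guf1, a translation factor, fell by 1.02 and 0.60. Of 20 aminoacyl-tRNA synthetases and related enzymes of mitochondria, 3 rose in WT and 7 with MLL-ENL, or without both libraries 5 rose and 2 fell in WT and 7 rose with MLL-ENL. Between strains, 1 of them, Tars2, rose with MLL-ENL in preGM, by 1.11 (edgeR, adjusted p = 0.0389), where 3.7% of all tested genes rose. This call ended without both libraries, at 0.53 (adjusted p = 0.136). Of 26 assembly and rRNA modification factors, 3 rose in WT and 13 with MLL-ENL, or 11 and 13 without both libraries, among them Noa1, a GTPase of ribosome assembly, by 1.37 and 1.47. Of 9 genes of mitochondrial DNA transcription and RNA stability, 2 rose in WT and 5 with MLL-ENL, or without both libraries 3 rose and 1 fell in WT and 5 rose with MLL-ENL. Polg2, a subunit of the mitochondrial DNA polymerase, rose by 1.35 and 1.82, while the mitochondrial RNA polymerase gene Polrmt (-0.52 and 0.52) passed in neither genotype. Without both libraries Polrmt fell in WT, at -0.60 (adjusted p = 0.0285). Scaled by library size alone, 1 of the 5 subunits (Aurkaip1) rose in WT, with no translation factor or synthetase, 1 assembly factor and 1 transcription or stability gene, while 0, 4, 6, 3 and 3 fell in the same order of lists. With MLL-ENL, 0, 1, 1, 2 and 1 then rose and 0, 1, 0, 1 and 1 fell. Of all tested genes, 7.58% rose and 39.2% fell in WT under that scaling, and 7.75% and 35.1% with MLL-ENL.

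Of 9 regulators of mitochondrial genes, none rose and 2 fell in WT, and 4 rose and 1 fell with MLL-ENL. Without both libraries 1 rose and 3 fell in WT, and 4 rose and 2 fell with MLL-ENL. Scaled by library size alone none rose, and 4 fell in WT and 2 with MLL-ENL, where 39.2% and 35.1% of all tested genes fell. Nrf1, which encodes NRF1, had a change of 0.22 in WT (adjusted p = 0.553) and rose by 0.96 with MLL-ENL (adjusted p = 0.0121), with 75.7, 35.3 and 37.5 CPM among MLL-ENL preGM replicates 1 to 3. Myc rose by 1.5 with MLL-ENL (adjusted p = 0.00536), with 428, 149 and 165 CPM in those libraries. In the fit without both libraries, Nrf1 rose by 0.38 (adjusted p = 0.0298) in WT and 0.52 (adjusted p = 0.00522) with MLL-ENL, and Myc by 0.85 (adjusted p = 0.00132) with MLL-ENL. Neither was called with MLL-ENL with library size alone (Nrf1 0.45, adjusted p = 0.335, Myc 1.02, adjusted p = 0.0953). The mitochondrial rRNAs mt-Rnr1 and mt-Rnr2 fell with MLL-ENL by 1.72 and 1.31 (adjusted p = 0.00137 and 0.0112), with changes of -0.52 and -0.33 in WT (adjusted p = 0.251 and 0.51). Without both libraries they fell in WT too, at -0.94 (adjusted p = 9.21e-05) and -0.76 (adjusted p = 0.00164). Of 12 tested genes for proteins encoded in mitochondrial DNA, 1 rose and 4 fell in WT, and none rose and 6 fell with MLL-ENL. Without both libraries 2 rose and 7 fell in WT, and 1 rose and 7 fell with MLL-ENL. Scaled by library size alone, none of these rose, and 10 fell in WT and 11 with MLL-ENL. Both mitochondrial rRNAs then fell in each genotype. In HSC, mt-Co1 alone of these 12 rose with MLL-ENL, by 1.22 (edgeR, adjusted p = 0.0213), where 3.19% of all tested genes rose. Without both libraries 2 rose in that comparison, where 10.3% of all genes did. Of 90 tested nuclear respiratory chain genes, 56 rose and 1 fell in WT, and 53 rose and 2 fell with MLL-ENL, or without both libraries 80 and 2 in WT and 84 and 2 with MLL-ENL. Of 85 tested cytosolic ribosomal protein genes, 21 rose and none fell in WT, and 13 rose and 1 fell with MLL-ENL. Leaving both libraries out gave 62 and 1 in WT and 81 and 1 with MLL-ENL. Scaling by library size alone, 9 respiratory chain genes rose in WT and 11 with MLL-ENL, and 2 and 0 cytosolic ribosomal protein genes did. Of all tested genes, 7.58% and 7.75% then rose. In the same order, 3 and 3 respiratory chain genes and 0 and 1 cytosolic ribosomal protein genes fell.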

How the data were processed

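Per the labels, RNA from 12 libraries was extracted with RNeasy micro columns and made into libraries by a SMARTer protocol for low input. Per the file headers, each deposited file lists exons, introns and transcripts with a read count per feature that the authors did not normalize, and an RPKM value that the authors scaled by length and library size. The submitters' processing notes name TopHat2 2.0.8, Bowtie2 2.1.0, HTSeq and edgeR, with no role or order. The build was not given in the sources used here. Features were matched to GENCODE M21 on GRCm38: of 93615 transcripts, 89664 (95.8%) matched by identifier, and 85.9% of those had identical exons. Transcripts left out held 1.23% to 3.20% of the counts. Counts of the non-overlapping exons with the most bases were summed per gene. Counting took no account of strand, and for 20 of the 78 genes another gene covers 10% or more of the exon bases, so that the reads of both cannot be told apart.

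Gene counts entered the quasi-likelihood test of edgeR 4.0.16 (R 4.3.3), with all 12 libraries, a mean per group, TMM scaling and filterByExpr (minimum count 10, total 15). Adjusted p-values are two-sided Benjamini-Hochberg values over 15706 genes, with a threshold of 0.05. SE is the absolute log2 change over the square root of F. The common biological coefficient of variation was 0.321. The script was tested on simulated data. Floors of 3 counts were 0.189, 0.143, 0.0738 and 0.0691 CPM for WT HSC, MLL-ENL HSC, WT preGM and MLL-ENL preGM, and cover counting error only. Alternatives were library size alone, RLE size factors, DESeq2 1.42.0, no filter, limma 3.58.1 on log2(RPKM + 0.1) and log2(RPKM + 1), the longest transcript, a replicate block, each library left out, both libraries that stood apart left out, only the 2 groups compared and, chosen after seeing the data, the main coding transcript. Both libraries left out together were also picked by their values in these data, as the labels name no batch or quality measure. The genes and lists were chosen with earlier results of these data known. Genes named by rule were, for each comparison, all called ones if 12 or fewer and otherwise the 6 largest changes in each direction, 8 genes set by function, and the 3 highest and 3 lowest per kb. Other genes named were chosen after their values were seen.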

Additional observations from a re-analysis of the deposited data

Results flagged for a closer look

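Mrpl57 differed between HSC and preGM in its change with MLL-ENL, by a test of the difference itself: the preGM change minus the HSC change was -1.42 (edgeR, adjusted p = 0.0117). Outside the 78 genes, the cytosolic ribosomal protein gene Rpl13 did too, with -2.18 (edgeR, adjusted p = 0.0445), a call that ended with library size alone, at -1.99 (adjusted p = 0.145). Rpl13 had 553, 781 and 853 CPM among WT HSC libraries, 1957, 2264 and 2239.6 among those of MLL-ENL HSC, 1462, 741 and 987 among those of WT preGM, and 1211, 466 and 405 among those of MLL-ENL preGM. All MLL-ENL HSC libraries were above all WT HSC libraries, whereas the preGM groups overlapped. Cytosolic ribosomal protein genes have near-identical pseudogene copies, so this value is uncertain.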

How the results depend on the processing

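Over 23 alternatives of each comparison of 2 groups, the median log2 change of the 78 genes kept its sign, at -0.46 to -0.22 for MLL-ENL in HSC, -0.63 to -0.01 in preGM, 0.34 to 1.14 for preGM against HSC in WT and 0.47 to 1.34 with MLL-ENL. The median difference of responses ranged from -0.15 to 0.44 over 22 alternatives and so changed sign. With library size alone it was -0.22 in HSC. For preGM against HSC, scaling by library size and limma with pseudocounts of 0.1 and 1 gave medians of 0.34, 0.36 and 0.35 in WT and 0.47, 0.53 and 0.52 with MLL-ENL. They called 16, 18 and 17 genes higher in WT and 25, 28 and 28 with MLL-ENL, and 2, 1 and 1 lower in WT. Of all tested genes, 7.58% rose and 39.2% fell in WT with library size alone, and 7.75% and 35.1% with MLL-ENL. Where no share over all genes stands here or above, a count shows only how the calls moved. With MLL-ENL, library size alone and limma on log2(RPKM + 1) called 2 lower, and the fit of the MLL-ENL groups alone 0. DESeq2 called 2 lower in HSC and 3 in preGM. Library size alone, limma at both pseudocounts and the fit of preGM alone called 0 lower in preGM, and library size alone and limma on log2(RPKM + 0.1) called 0 for the difference of responses. Leaving out each of 12 libraries gave 0 to 1 higher and 0 to 9 lower in HSC, 0 to 2 lower in preGM, 0 to 1 higher and 1 to 2 lower for the difference of responses, 46 to 68 higher and 0 to 1 lower in WT, and 40 to 63 higher and 0 to 1 lower with MLL-ENL. Without both libraries that stood apart, 2 were higher and 49 lower in HSC, 3 lower in preGM, 23 higher and 3 lower for the difference of responses, 1 lower in WT and 2 lower with MLL-ENL. The fit of HSC alone called 2 higher and 40 lower. The median change in HSC was -0.42 in the fit of all 12 libraries, -0.42 without both libraries and -0.40 in HSC alone. The fit of all 12 libraries uses 1 estimate of a gene's spread for all 4 groups. The cause of the changed calls was not tested. For 35 results on single genes, 738 of 802 repeats had the outcome of the report, counting genes that were uncalled in both. Calls were lost in 53 and gained in 11, with 0 calls of opposite sign. Estimates of some uncalled genes did change sign, as for Mrps30 in WT, at -0.64 to 0.31. Deviations of libraries with the same replicate number correlated at -0.104 to 0.1, and of those with different numbers at -0.135 to 0.137. No sign of a pairing by number was seen, but this check cannot exclude one. With the replicate block, 56 genes rose in WT, 52 rose and 1 fell with MLL-ENL, 0 were called in HSC, and 1 was lower in preGM and in the difference of responses. Main coding transcripts, chosen after seeing the data, gave 57 higher in WT and 55 with MLL-ENL.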

Other observations

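Start sites of mitochondrial ribosomal protein genes often lay head to head with those of other genes. Of the 78 genes, 33 (42.3%) had a protein-coding start on the opposite strand within 1 kb, against 2386 of 22028 protein-coding genes (10.8%). Over 31 tested pairs, 24 of the mitochondrial ribosomal protein genes rose from HSC to preGM in WT, while 6 of their partners rose and 4 fell, where 18.4% of all tested genes rose and 20.1% fell. With MLL-ENL, 24 rose, and 11 partners rose and 3 fell, against 20.4% and 21.1% of all tested genes. Without both libraries that stood apart, 28 of the mitochondrial ribosomal protein genes rose in each genotype, 10 partners rose and 7 fell in WT, and 12 rose and 6 fell with MLL-ENL. Of all tested genes, 25.6% then rose and 25.3% fell in WT, and 25.1% and 26.5% with MLL-ENL. Scaled by library size alone, 7 rose in each genotype, 1 partner rose and 11 fell in WT, and 3 rose and 6 fell with MLL-ENL. These shares of all tested genes were 7.58% and 39.2% in WT, and 7.75% and 35.1% with MLL-ENL. The median log2 change of the partners was 0.20 in WT and 0.45 with MLL-ENL. Mrpl46 and Mrps11 are partners of each other and rose by 1.08 and 0.94 in WT, but with library size alone neither passed (edgeR, 0.38, adjusted p = 0.199 and 0.22, adjusted p = 0.467). Mrpl18 and its partner Tcp1, a cytosolic chaperonin subunit, rose by 2.0 and 1.93 with MLL-ENL. Other genes share 12.4% of the exon bases of Mrpl46, 7.97% of those of Mrps11 and 10.4% of those of Mrpl18. Reads in shared bases cannot be told apart, and their part in these parallel rises was not tested. Mrpl51 rose in WT by 1.79 while Ncapd2, a condensin subunit, fell by 0.78. Mrpl57 starts 49 bases from Ska3, which acts at kinetochores. Ska3 had -0.52 in WT (edgeR, adjusted p = 0.222) and rose by 1.12 with MLL-ENL (edgeR, adjusted p = 0.0126), where Mrpl57 had -0.10.

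The gene of the 78 nearest to Col1a1, the locus named in the strain label, was Mrpl27, at 0.276 Mb on chromosome 11. Its log2 change with MLL-ENL was -0.46 in HSC and -0.63 in preGM (edgeR, adjusted p = 0.517 and 0.282). Leaving both libraries out, it fell in HSC, at -0.46 (adjusted p = 0.0214), and had 0.09 (adjusted p = 0.879) in preGM. In the fit of the HSC libraries alone its adjusted p was 0.0494.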
